A study of Mus musculus with 14 samples.

Results

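The immediate early genes examined here were Fos, Fosb, Jun, Junb, Jund, Egr1, Atf3, Ier2, Dusp1 and Nr4a1. These 10 of the 55414 genes in the count table were chosen by name, with earlier results of these data known. They were followed in 14 RNA-seq libraries of granulosa cells (GCs), the somatic cells that surround the oocyte, taken from antral follicles of female mice. The groups were db/db (4 libraries), which lacks a working long form of the leptin receptor, its lean control CT db (4 libraries), ob/ob (3 libraries), which lacks functional leptin, and its lean control CT ob (3 libraries). Both lines were on a C57BL/6J-type background (B6.BKS(D)-Lepr db/J and B6.Cg-Lep ob/J), ate chow and were kept until 12 weeks of age, and the controls were lean littermates. In the labels both controls are wild type, but the columns of the table are headed het, so whether they carried 1 mutant allele could not be settled. The study's methods describe how the cells were freed by puncturing the ovaries with a needle in medium. They were then separated from the oocytes, centrifuged and washed before lysis, and no label gives the handling time of a library. Each library came from about 50 cells, its RNA was captured by the poly(A) tail and amplified without molecular identifiers, and no label gives a batch or date. Libraries are called A to D within a group, which are names only.

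Immediate early genes are transcribed within minutes of a signal, without new protein synthesis, because the factors that switch them on are already present in the cell. Growth factor signals reach many of them through the serum response factor SRF, which binds CArG boxes, and cAMP signals reach them through CREB, which binds the cAMP response element. Their mRNAs and proteins are short-lived, so their level follows recent signalling. In GCs, where gonadotropins act through cAMP, Egr1, Nr4a1 and genes of the Fos and Jun families are known to be induced around ovulation.

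Total counts per library ran from 2204686 to 8367593, and the 10 genes took between 0.0292% and 0.369% of them. All 10 GC markers (among them Fshr, Cyp19a1 and Inha) were detected, with a summed level of 5678 to 16450 CPM (counts scaled to a common library size by the trimmed mean of M values, TMM). Oocyte markers summed to 40.7 to 273 CPM in the 2 db groups and to 96.9 to 1117 CPM in the 2 ob groups. Summed macrophage, endothelial, stroma and smooth muscle markers stayed between 2.16 and 84.0 CPM, and theca markers between 87.8 and 201 CPM except in db/db A, with 738 CPM. Lep had 0 to 3 counts and Lepr 0 to 17 counts in every library, which is too few to check the genotypes.

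The 500 bases upstream of the start of each gene's canonical transcript were searched on both strands for the letters TGACGTCA (the full cAMP response element), for the CArG box, for TGACTCA (an AP-1 site), for GCGNGGGCG (an EGR site) and for TATAAA (the box of the core promoter). A CArG box lay upstream of Fos and Fosb, 2 of the 10 genes, against 2.76% of 21770 protein-coding genes. A full cAMP response element lay upstream of Jund, Ier2 and Dusp1, 3 of the 10, against 1.96%. The EGR letters were present for 3 of the 10 (5.45% of all), the core promoter letters for 3 (24.3%) and the AP-1 letters for none (7.57%). For every motif, a missing match says only that it is not in this window, whose place depends on the canonical start. These stretches, read from GRCm39 in the direction of transcription with up to 30 bases on either side, are shown because their genes were followed together below, and the capitals mark the CArG box (Fos, Fosb) or the cAMP response element (the others).
Fos, chr12:85520325-85520394, plus strand: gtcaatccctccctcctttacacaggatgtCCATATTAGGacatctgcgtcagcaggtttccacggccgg
Fosb, chr7:19044203-19044272, minus strand: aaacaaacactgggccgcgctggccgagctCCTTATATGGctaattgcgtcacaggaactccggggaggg
Jund, chr8:71151355-71151422, plus strand: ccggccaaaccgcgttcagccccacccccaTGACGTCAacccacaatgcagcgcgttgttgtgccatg
Ier2, chr8:85389489-85389556, minus strand: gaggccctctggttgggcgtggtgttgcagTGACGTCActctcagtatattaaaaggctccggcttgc
Dusp1, chr17:26727552-26727619, minus strand: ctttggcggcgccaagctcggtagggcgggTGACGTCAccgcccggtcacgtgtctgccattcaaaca
The first base of the marked motif lay 303 bases upstream of the start in Fos, 266 in Fosb, 214 in Jund, 43 in Ier2 and 96 in Dusp1. Among all 11387 other tested genes with a searched promoter, those with a cAMP response element and those without it followed the 10 genes about as little, with median correlations of 0.0322 and -0.00374 to the mean pattern described below. A match of letters is a description and not a binding site.

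Every gene of the set but Atf3 was read well above the counting floor in all 14 libraries, and every one varied between libraries of the same group more than most genes did. Fos, the AP-1 subunit that pairs with Jun proteins (ENSMUSG00000021250, chr12:85520658-85524047), had 132, 209, 545 and 1210 CPM in CT db A to D and 392, 1074, 1280 and 513 CPM in db/db A to D. In the ob model it had 43.7, 543 and 1110 CPM in CT ob A to C and 168, 813 and 1661 CPM in ob/ob A to C. All 4 groups overlapped, and the lowest and the highest library differed 38-fold. The lowest value rested on 228 counts (95% exact Poisson interval 38.2 to 49.7 CPM) and the highest on 13491 counts (1633 to 1689 CPM), and these intervals cover counting error only. In these bulk samples, fewer cells carrying a transcript and less of it in each cell cannot be told apart.

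**Figure D1:**
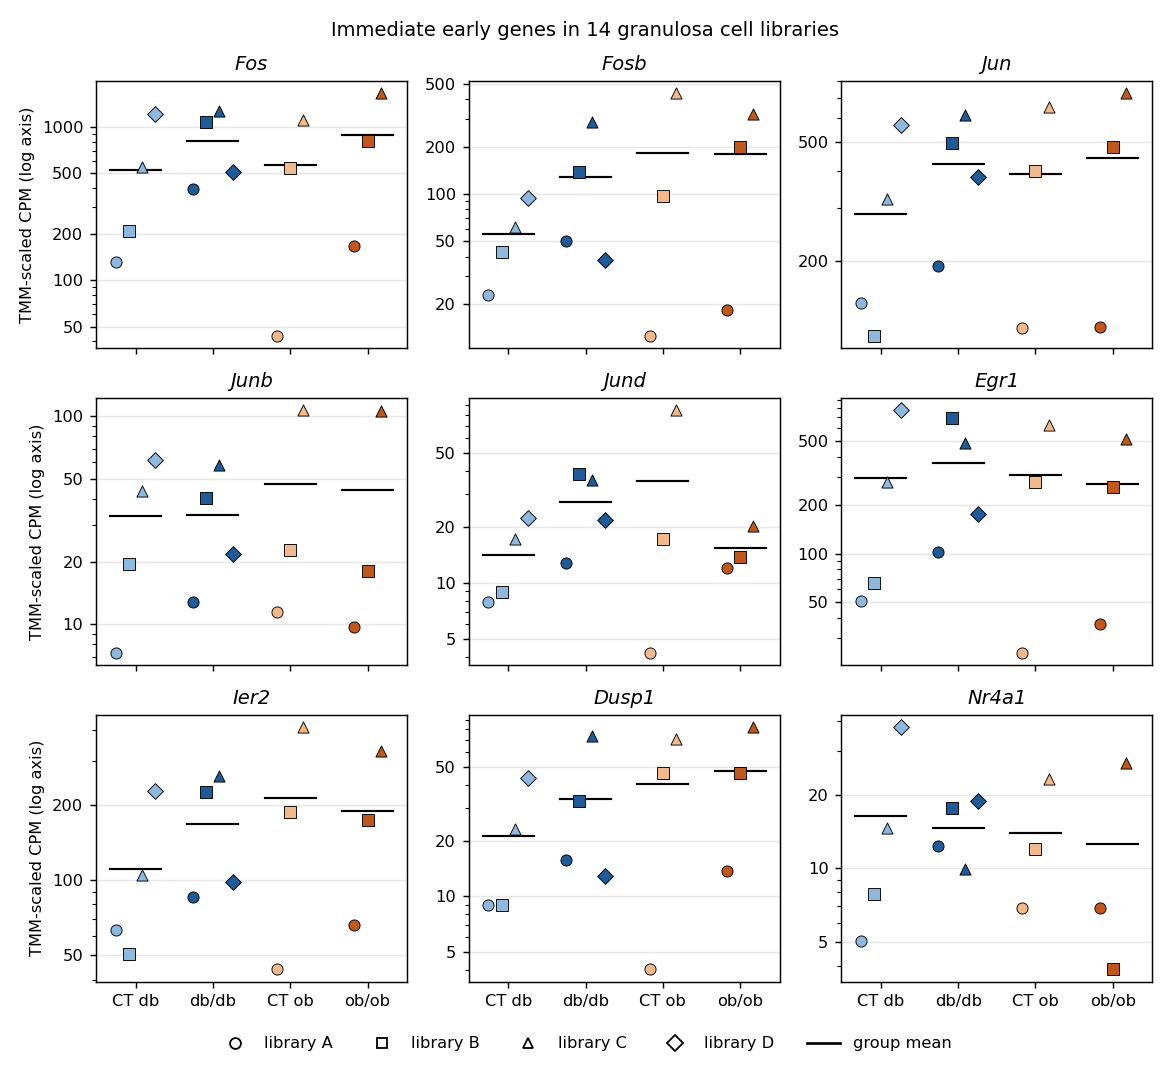
TMM-scaled CPM (log axis) of 9 immediate early genes in each of the 14 libraries, by group; symbols name the library within its group and bars give the group mean. The libraries of each group spread widely and all 4 groups overlap for every gene; Fos alone ran from 43.7 to 1661 CPM.

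Fosb, a second Fos family subunit (ENSMUSG00000003545, chr7:19036621-19043976), had 22.8, 42.6, 61.8 and 94.7 CPM in CT db A to D, and 50.3, 137, 286 and 38.1 CPM in db/db A to D. It had 12.6, 97.7 and 437 CPM in CT ob A to C and 18.3, 200 and 324 CPM in ob/ob A to C. Its highest library was thus a lean control, CT ob C, and its lowest another lean control of the same colony, CT ob A, 34.5-fold apart. Among the Jun proteins, which bind DNA as dimers with Fos proteins or each other, Jun (ENSMUSG00000052684, chr4:94937271-94940459) varied least, from 112 to 729 CPM or 6.49-fold. Junb (ENSMUSG00000052837, chr8:85701113-85705359) ran from 7.32 to 107 CPM, with the 2 highest libraries, CT ob C and ob/ob C, at 107 and 106 CPM.

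Jund, the Jun family member usually described as the most constant (ENSMUSG00000071076, chr8:71151599-71153265), had 7.88, 8.95, 17.3 and 22.4 CPM in CT db A to D and 12.8, 38.7, 35.9 and 21.9 CPM in db/db A to D. In CT ob A to C it had 4.22, 17.2 and 85.0 CPM and in ob/ob A to C 12.1, 13.7 and 20.3 CPM. It spread 20.2-fold within CT ob alone and 1.68-fold within ob/ob, and the groups overlapped in every comparison.

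Egr1, a zinc finger transcription factor (ENSMUSG00000038418), had 50.9, 65.4, 278 and 777 CPM in CT db A to D and 102, 692, 484 and 177 CPM in db/db A to D. It had 24.3, 279 and 625 CPM in CT ob A to C and 36.6, 259 and 518 CPM in ob/ob A to C. With a standard deviation within groups of 1.86 on the log2 scale, it was the most variable gene of the set. Ier2, a nuclear protein encoded by a short gene (ENSMUSG00000053560, chr8:85387960-85389483), ran from 43.9 CPM in CT ob A to 412 CPM in CT ob C. Dusp1, the phosphatase that switches MAP kinases off (ENSMUSG00000024190, chr17:26724564-26781102), ran from 4.02 CPM in CT ob A to 82.1 CPM in ob/ob C.

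Nr4a1, an orphan nuclear receptor that regulates steroidogenic genes (ENSMUSG00000023034, chr15:101151980-101172681), was ordered differently in part. It had 5.07, 7.88, 14.6 and 37.7 CPM in CT db A to D, 12.4, 17.6, 9.96 and 18.8 CPM in db/db A to D, 6.90, 12 and 23.1 CPM in CT ob A to C, and 6.90, 3.88 and 27.0 CPM in ob/ob A to C. In db/db it was lowest in library C, where Fos, Fosb, Jun, Junb, Ier2 and Dusp1 were highest. Atf3, a stress-induced repressor of the ATF family (ENSMUSG00000026628, chr1:190902493-190950241), had at most 4 counts in 10 libraries, against a floor of 3, and was left out by the low-count filter. It had 2, 0, 3 and 11 counts in CT db A to D, 0, 1, 0 and 0 in db/db A to D, 2, 8 and 6 in CT ob A to C and 4, 1 and 25 in ob/ob A to C. Its 3 zeros in db/db allow up to 0.938 to 1.30 CPM, the floors of those libraries, so nothing can be read from them about absence.

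Levels of different genes were compared per kilobase of the canonical transcript. By the median over 14 libraries, Fos stood first with 258 CPM per kb, followed by Jun (122), Ier2 (91.9), Egr1 (59.7), Fosb (20.7), Dusp1 (14), Junb (12.3), Jund (10.3), Nr4a1 (4.77) and Atf3 (0.250 CPM per kb). Fos exceeded Jun in 13 of the 14 libraries, and Egr1 exceeded Fosb in all 14. Dusp1 exceeded Junb in 6 of 14 and Junb exceeded Jund in 9 of 14, so these neighbours did not keep an order. The exception for Fos was CT ob A, where Jun was higher.

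The spread of these genes lay within the groups and not between them. The standard deviation within groups of log2 CPM, pooled over the 4 groups, was 1.0 (Nr4a1) to 1.86 (Egr1) for the 9 genes that passed the filter, against a median of 0.349 over all 12586 genes tested. By this measure they lay between the 94.7th and the 99.6th percentile of all genes. Set only against genes at or above its own mean level, each lay between the 97.8th and the 99.7th percentile. Differences between the 4 group means made up 0.773% (Junb) to 13.6% (Jund) of each gene's variance, while the median over all genes was 31.4%.

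The genes were high or low in the same libraries. Each gene was expressed as its deviation from its group mean in log2 CPM, and in 10 of the 14 libraries all 9 genes lay on the same side of their group means, and in 2 more all but Nr4a1 did. Of the 9 genes, all were highest in CT db D within CT db, all were highest in CT ob C and lowest in CT ob A within CT ob, and all were highest in ob/ob C within ob/ob, where 8 were lowest in library A. In db/db, 6 were highest in library C and 6 lowest in library A. The mean deviation of the 9 genes ran from -2.0 in CT ob A to 1.68 in CT ob C, and the largest gap between neighbouring libraries was 0.590. Whether the libraries fall into separate clusters was not tested.

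**Figure D2:**
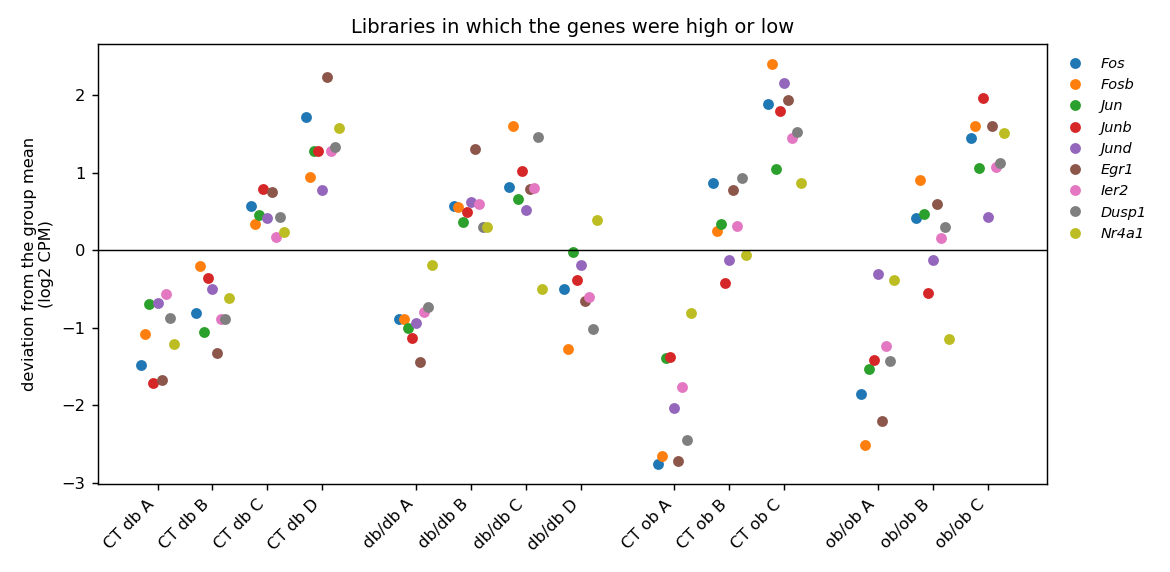
Deviation of each of 9 genes from its group mean (log2 CPM, vertical axis) in the 14 libraries (horizontal axis, by group). The 9 points of a library lie together: in CT ob A all are below 0 and average -2.0, in CT ob C all are above 0 and average 1.68.

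Over all 45 pairs of the 10 genes, Pearson's r of these deviations ran from 0.488 to 0.982 with a median of 0.861, and Spearman's rho from 0.459 to 0.965 with a median of 0.855. In an exact two-sided permutation test that shuffled libraries within groups (20736 arrangements, smallest possible p = 4.82e-05), 40 of the 45 pairs passed a Benjamini-Hochberg adjusted p of 0.05 by r and 38 by rho. The pairs share their libraries and are not independent of each other, and the 10 genes were chosen with earlier results of these data known. As a background, chosen after the data had been seen, the same test was run between Fos and every tested gene. All 8 other tested members had an unadjusted exact permutation p of 0.05 or less with a positive r, against 569 of 12577 other genes (4.52%), while adjusted over all genes no gene passed, members included. With a smallest possible p of 4.82e-05, 1 gene alone could not pass that adjustment, so its outcome says little. Among the 36 pairs without Atf3, r was at least 0.5 in 35 (97.2%) and at least 0.8 in 27 (75%), where 9.76% and 0.664% of all pairs of other genes were. Neither background was matched to the members for spread. The median standard deviation within groups was 0.349 over all tested genes, and the lowest of a tested member was 1.0 (Nr4a1). Fos and Egr1 were the closest pair (r = 0.98, rho = 0.96, adjusted exact permutation p = 0.000814). The log2 ratio of Fos to Egr1 had a standard deviation within groups of 0.411, against 1.61 for Fos and 1.86 for Egr1 alone. Egr1 and Ier2 (r = 0.974), Fos and Ier2 (r = 0.972) and Jun and Egr1 (r = 0.972) followed. Next came Ier2 and Dusp1 (r = 0.969) and Fos and Dusp1 (r = 0.968).

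**Figure D3:**
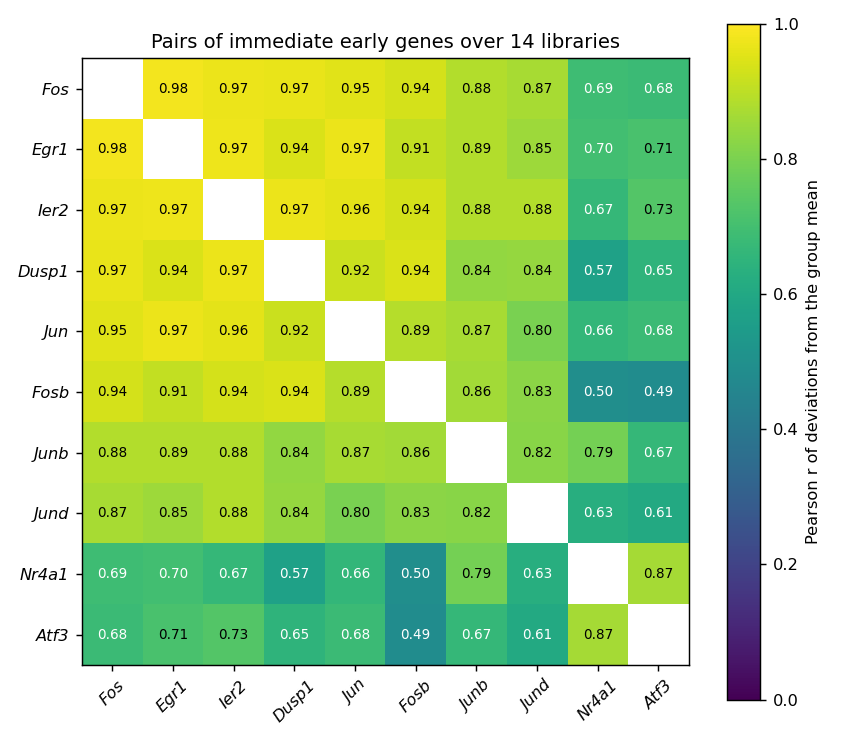
Pearson r of deviations from the group mean for every pair of the 10 genes over 14 libraries (colour scale from 0 to 1; the diagonal is blank). The 28 pairs without Nr4a1 and Atf3 lie between 0.80 and 0.982; Nr4a1 and Atf3 form the lower rows.

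Without Atf3 and Nr4a1, all 28 pairs passed, with r between 0.80 and 0.982. Without the 2 libraries farthest from the median of the first gene, r of these 28 pairs ran from 0.739 to 0.978. Nr4a1 followed the others less closely, with r between 0.495 (Fosb) and 0.790 (Junb), and 5 of its 8 pairs with genes other than Atf3 passed. Atf3 passed in 7 of its 9 pairs by r and in 5 by rho, and its highest r was with Nr4a1 (0.87). Without the 2 farthest libraries that r was 0.632, and since Atf3 had at most 25 counts its correlations rest on few reads.

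The joint movement was present in each model taken alone. Over the 36 pairs without Atf3, the median r was 0.876 in the 8 libraries of the db model and 0.875 in the 6 libraries of the ob model, against 0.884 in all 14. With any 1 library left out, the median over all 45 pairs lay between 0.846 (without CT ob A) and 0.888 (without CT ob B). The genes moved by different amounts, however. By the slope of a fitted line, for each log2 unit of Fos, Egr1 moved by 1.14, Fosb by 1.01, Dusp1 by 0.851 and Junb by 0.770 log2 units. Ier2 moved by 0.685, Jun by 0.648, Jund by 0.597, Nr4a1 by 0.431 and Atf3 by 0.420 log2 units. A weaker correlation lowers such a slope, and r with Fos was 0.691 for Nr4a1 and 0.683 for Atf3, which also had few reads.

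Measures of the libraries were set beside Fos, after the data had been seen. Of 11 measures, none was related to the Fos deviation after adjustment (Benjamini-Hochberg over the 11, exact permutation within groups). The summed level of the 10 GC markers had r = 0.638 (rho = 0.635, exact permutation p = 0.0467, adjusted p = 0.514) and r = 0.537 without the 2 farthest libraries. The summed oocyte markers had r = -0.612 (rho = -0.560, exact permutation p = 0.101, adjusted p = 0.558) and r = -0.295 without the 2 farthest libraries. CT ob A, the library with the lowest Fos, had the highest oocyte marker sum (1117 CPM), and CT ob C, which was high for all 9 genes, had 24.5% of its counts on the 18S rRNA gene Rn18s-rs5 against 1.1% to 12.8% elsewhere. Over all libraries the 18S share had r = 0.294 (rho = 0.292, exact permutation p = 0.584, adjusted p = 0.892) and r = 0.142 without the 2 farthest. Genes detected at equal depth had r = 0.560 (rho = 0.459, exact permutation p = 0.163, adjusted p = 0.597) and r = 0.243 without the 2 farthest. Total counts had r = -0.147 (rho = -0.0462, exact permutation p = 0.667, adjusted p = 0.892) and r = -0.395 without the 2 farthest. The summed theca markers had r = 0.131 (rho = 0.297, exact permutation p = 0.604, adjusted p = 0.892) and r = 0.601 without the 2 farthest. In the same order, r was 0.322 and 0.467 for endothelial, 0.0068 and 0.304 for smooth muscle, and 0.200 and -0.118 for macrophage markers. It was -0.0026 and -0.0705 for stroma markers and 0.114 and 0.0634 for the mitochondrial share. The part of these measures, or of the handling of the cells at collection, in the joint movement was not tested.

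Beyond the 10 genes, the genes whose deviations were most like the mean of the 9 over the 14 libraries included Zfp36 (r = 0.97), Ppp1r15a (0.96), Btg2 (0.94), Rhob (0.94), Per1 (0.93), Gm17334 (0.93), Nfkbiz (0.93), Klf6 (0.91) and Rps3a1 (0.91). These correlations are descriptions over libraries that the genes share. Zfp36 encodes an RNA-binding protein that speeds the decay of AU-rich mRNAs, Ppp1r15a a subunit that directs a phosphatase to a translation factor, Btg2 an antiproliferative protein, Rhob a small GTPase, and Per1 a component of the circadian clock that is also rapidly inducible. Zfp36 had a standard deviation within groups of 1.185 on the log2 scale and Btg2 one of 1.16, close to that of Ier2 (1.13), whereas Rps3a1, a ribosomal protein gene, had one of 0.215. Of the 10 most alike genes 9 were protein-coding and searched. The full cAMP response element lay upstream of 2 of them, Ppp1r15a and Btg2, and not of the other 7, and none had a CArG box or the AP-1 letters. Both stretches are shown for comparison with Jund, Ier2 and Dusp1 above, with the element in capitals.
Ppp1r15a, chr7:45175693-45175734, minus strand: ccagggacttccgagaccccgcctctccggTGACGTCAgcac
Btg2, chr1:134007022-134007089, minus strand: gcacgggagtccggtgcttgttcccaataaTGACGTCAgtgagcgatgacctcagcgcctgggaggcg

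Other primary response genes followed in part. Of 57 such genes listed, 46 were tested, 19 of them (41.3%) had r above 0.5 with the mean of the 9 genes and 10 (21.7%) had r above 0.8, while 13.2% and 0.620% of all other tested genes did. Their median r was 0.425, and besides those named above, Klf4 (0.89), Klf2 (0.84), Ccn1 (0.82) and Tob1 (0.81) were above 0.8. Of 14 AP-1 and ATF partners, 9 were tested with a median r of 0.326, Atf4 being the highest at 0.76. Of 25 upstream factors of the serum and cAMP responses, all were tested and the median r was -0.01. SRF, which acts at CArG boxes, was an exception with r = 0.81 for its gene Srf. Among genes induced by LH and cAMP in GCs, 4 of 11 were tested, with a median r of 0.375. The protease gene Adamts1 had r = 0.86, Btc 0.69, Star 0.06 and Rgs2 -0.18. Heat shock genes had a median r of 0.226 (11 of 13 tested) and oocyte markers one of -0.263 (10 of 10 tested). GC markers had a median r of 0.534 (10 of 10 tested), and 5 of them had r above 0.5. They ran from -0.295 (Amh) and 0.0369 (Foxl2) to 0.72 (Inhba and Fshr).

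**Figure D4:**
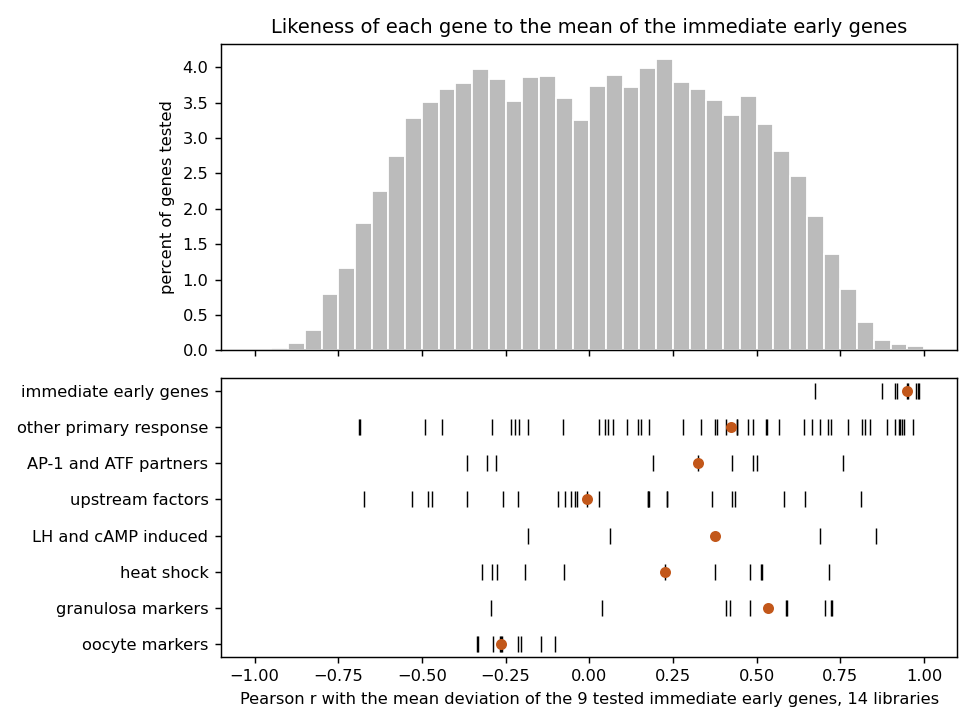
Top, percent of tested genes by Pearson r with the mean deviation of the 9 immediate early genes over 14 libraries; the 9 genes are themselves part of that mean. Bottom, each tested gene of 8 lists (ticks) with the list median (orange): other primary response genes have a median of 0.425 and oocyte markers one of -0.263.

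The likeness to these genes also varied with transcript properties over the whole transcriptome. With the genes split into 4 equal classes, the median r was 0.193 in the class with the shortest transcripts and between -0.104 and 0.00636 in the other classes. It was -0.224 in the class with the lowest GC content and 0.224 in the class with the highest, and the GC content of the 10 transcripts ran from 51.9% (Fos) to 67.2% (Jund). The part of transcript length and GC content in the joint movement was not tested. The first principal component of the deviations of all tested genes held 22.4% of their variance and had an absolute r of 0.780 with the mean of the 9 genes.

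The comparison of db/db with CT db asks whether loss of the long form of the leptin receptor went with another level of these genes in GCs. Of the 9 genes tested, 0 passed in edgeR's quasi-likelihood test (adjusted p from 0.621 to 0.999), against 1 of 11317 genes or 0.00884%. By DESeq2 0 passed as well (0.389% of all genes), and at an unadjusted p under 0.05 in edgeR there was 1, Jund, against 7.59% of all genes. For Jund the db/db libraries averaged 27.3 ± 12.2 CPM and the CT db libraries 14.1 ± 6.93 CPM (± SD over 4 libraries each), and the log2 fold change was 0.95 (95% interval 0.09 to 1.80, edgeR adjusted p = 0.621). Fosb averaged 128 ± 114 CPM against 55.5 ± 30.6 CPM, with a log2 fold change of 1.19 (interval -0.07 to 2.45, edgeR adjusted p = 0.673). Fos averaged 815 ± 430 CPM against 524 ± 491 CPM, with a log2 fold change of 0.63 (interval -0.66 to 1.92, edgeR adjusted p = 0.821).

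The log2 fold changes of the other genes in db/db were 0.55 for Jun, 0.0012 for Junb, 0.31 for Egr1, 0.59 for Ier2, 0.67 for Dusp1 and -0.14 for Nr4a1. Thus 8 of 9 lay above 0, where 51.6% of all genes did, and the median was 0.59 against 0.01 over all genes. These genes moved together from library to library, so the 9 directions were not 9 separate observations. Leaving out 1 library moved that median between 0.29 (without db/db C) and 1.26 (without CT db D). Fosb moved between 0.43 (without db/db C) and 1.58 (without CT db D), Fos between 0.31 (without CT db A) and 1.46 (without CT db D), and Jund between 0.73 (without db/db B) and 1.26 (without CT db D). None of the 10 genes separated the groups without overlap, where 4.13% of all genes did, and the smallest two-sided exact permutation p over libraries, before adjustment, was 0.143 (Jund and Atf3; 0.0286 is the smallest this design allows).

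**Figure D5:**
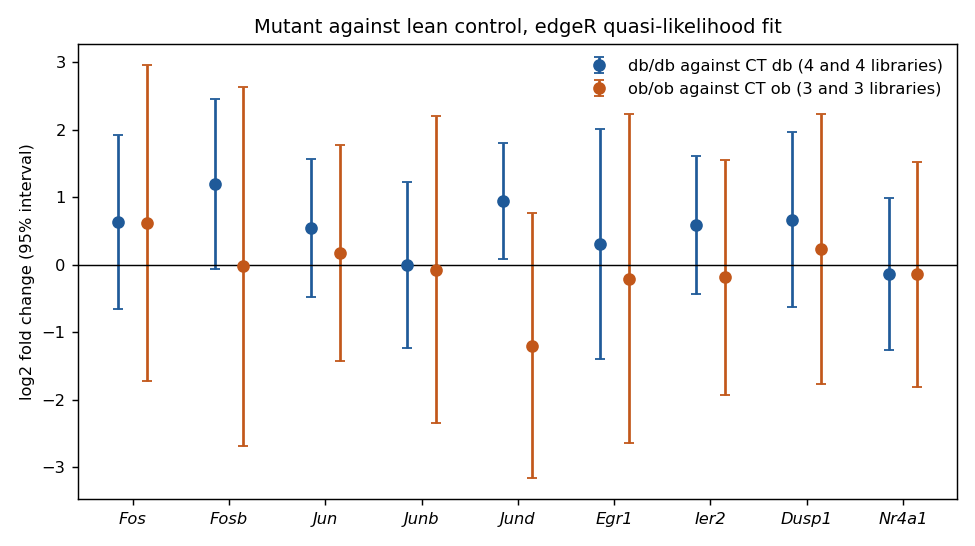
Log2 fold change of mutant against lean control for 9 genes (points, edgeR) with 95% intervals (bars), for db/db (4 and 4 libraries, blue) and ob/ob (3 and 3 libraries, orange). Of the 18 intervals only that of Jund in the db model, 0.09 to 1.80, leaves out 0, and its adjusted p is 0.621.

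The comparison of ob/ob with CT ob asks the same for loss of leptin itself. Of the 9 genes, 0 passed in edgeR (adjusted p from 0.732 to 0.995), as did 0 of all 12425 genes (0%). By DESeq2 0 passed (0.736% of all genes), and 0 had an unadjusted p under 0.05 (8.16% of all genes). For Fos the ob/ob libraries averaged 881 ± 749 CPM and the CT ob libraries 566 ± 533 CPM (± SD over 3 libraries each), and the log2 fold change was 0.62 with an interval from -1.72 to 2.96. Jund averaged 15.4 ± 4.36 CPM against 35.5 ± 43.4 CPM, a log2 fold change of -1.19 (interval -3.16 to 0.77, edgeR adjusted p = 0.732). The remaining log2 fold changes were -0.02 for Fosb, 0.17 for Jun, -0.07 for Junb, -0.20 for Egr1, -0.18 for Ier2, 0.24 for Dusp1 and -0.14 for Nr4a1.

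In the ob model 3 of 9 genes thus lay above 0, against 46% of all genes, and the median was -0.07 against -0.04 over all genes. It moved between -0.84 (without ob/ob C) and 0.81 (without CT ob C), so single libraries set its direction. The groups overlapped for all 10 genes (15.7% of all genes did not overlap), and the smallest exact permutation p was 0.60, where 0.10 is the smallest that 3 against 3 libraries allow. The intervals left room for changes of more than 2-fold in either direction for 8 of the 9 genes. In both models the larger of the 2 group SDs exceeded the difference between the group means for each of the 9 genes, except Jund in db/db.

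Both colonies could also be compared directly, as lean controls, as mutants, and by asking whether the mutant effect differed between them. In CT ob against CT db, 0 of 9 genes passed in edgeR and 0 in DESeq2 (adjusted p from 0.229 to 0.969 in edgeR), while 6.63% of all 12586 genes passed in edgeR and 12.4% in DESeq2. None of the 9 had an unadjusted p under 0.05, where 26.9% of all genes did. The 2 largest log2 fold changes were 1.71 for Fosb (SE 0.970, edgeR adjusted p = 0.265) and 1.31 for Jund (SE 0.683, edgeR adjusted p = 0.229), and the median was 0.49 with 8 of 9 above 0 (54.1% of all genes). Without CT ob C the median was -0.29, Fosb was at -0.03 and Jund at -0.43. The groups overlapped for all 10 genes, where 21.2% of all genes did not.

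In ob/ob against db/db, 0 of 9 passed in edgeR (0.0159% of all genes; adjusted p from 0.877 to 0.991), 0 in DESeq2 (0.573%), and 0 at an unadjusted p under 0.05 (8.18%). The median log2 fold change was 0.11, with 6 of 9 above 0 (49.1% of all genes), and it moved between -0.73 (without ob/ob C) and 0.60 (without ob/ob A). No gene separated the mutants without overlap, where 9.91% of all genes did. For the contrast of both mutant effects, 0 of 9 passed in edgeR (0% of all genes; adjusted p from 0.599 to 1.0) and 0 in DESeq2 (0.608%), and 1 had an unadjusted p under 0.05 (8.11% of all genes). Of the 9 differences 2 lay above 0 (46.7% of all genes), and their median was -0.42, which moved between -1.38 (without ob/ob C) and 0.55 (without CT ob C), and lay above 0 without ob/ob A as well (0.052). The gene under 0.05 was Jund, whose log2 fold change in the ob model minus that in the db model was -2.13 (SE 0.9749, edgeR adjusted p = 0.599). It moved between -2.67 (without CT ob A) and -0.39 (without CT ob C).

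The other genes of the pathway were read in the same fits. Of the other primary response genes, 43 were tested for db/db and 46 for ob/ob, and 0 passed in either by edgeR or DESeq2, and 7 (16.3%) and 1 (2.17%) had an unadjusted p under 0.05. For this and the following lists, such p-values were found for 7.59% of all genes in db/db and 8.16% in ob/ob. Those with the smallest p were Tob1 in db/db, a growth-restraining gene (log2 fold change 0.90, SE 0.259, edgeR adjusted p = 0.462), and Gadd45g in ob/ob, a stress-response gene (-1.32, SE 0.568, edgeR adjusted p = 0.611). Of the upstream factors, 0 of 25 passed in either model by edgeR or DESeq2 (1 and 4 at an unadjusted p under 0.05), the smallest p being those of Crebbp, a coactivator of CREB, in db/db (0.40, edgeR adjusted p = 0.648) and Braf, a kinase of a growth factor cascade, in ob/ob (0.63, edgeR adjusted p = 0.568). Of LH and cAMP induced genes 0 of 4 passed in either model by edgeR or DESeq2 (0 and 1 at an unadjusted p under 0.05), the smallest p being those of the growth factor gene Btc in db/db (0.76, edgeR adjusted p = 0.709) and the cholesterol carrier gene Star in ob/ob (-1.74, edgeR adjusted p = 0.561). Heat shock genes gave 0 of 10 in both models by edgeR and DESeq2 (1 and 1 at an unadjusted p under 0.05), with Hspe1 at -0.54 in db/db and Hsph1 at -0.52 in ob/ob.

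Among the AP-1 and ATF partners, 0 of 8 passed for db/db and 0 of 9 for ob/ob by edgeR or DESeq2 (0 and 1 at an unadjusted p under 0.05), with Atf7 at 0.28 and Atf1 at 0.48 as the log2 fold changes of smallest p. In CT ob against CT db, Atf1, a CREB family factor that binds the cAMP response element, was the single gene of these 5 lists that passed in edgeR, 1 of 93 genes tested (1.08%) against 6.63% of all genes. By DESeq2 5 of the 93 passed (5.38%, against 12.4% of all genes), and the other 4, named after their values were seen, were Ier3 (log2 fold change 1.16), Plk2 (1.36), the stress kinase gene Mapk8 (-0.48) and the chaperone gene Hsp90ab1 (0.50). Atf1 was lower in CT ob, with a log2 fold change of -1.02 (SE 0.135, edgeR adjusted p = 0.00268; DESeq2 adjusted p = 9.4e-11), and it passed under every alternative tried.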

How the data were processed

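The authors deposited 1 table of raw read counts per Ensembl gene for 14 libraries, made from poly(A) RNA (G&T protocol, Nextera XT libraries from 100 to 200 pg of cDNA). The study's methods name cutadapt, STAR, GRCm39 and featureCounts, while the submitters' processing notes name FastQC, Trim Galore 0.6.2, HISAT2 2.1.0 and GRCm38; which made the table could not be settled. Symbols and coordinates came from GENCODE vM39 (GRCm39), which named 54749 of 55414 identifiers. Neither strand nor duplicate molecules were marked, so overlapping genes cannot be separated and p-values measure the spread between libraries. Columns were assigned to groups by name, not to single labelled samples.

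Counts were scaled by TMM. Genes passing filterByExpr (minimum count 10, total 15) were tested by edgeR 4.0.16 (R 4.3.3; quasi-likelihood), per model, and in 1 fit of all 14 libraries for the other comparisons, at a Benjamini-Hochberg adjusted p of 0.05; DESeq2 1.42.0 was an alternative. Fold changes come from these fits, and group means are TMM-scaled CPM. Deviations used log2 CPM with a prior count of 2; all 20736 arrangements within groups were enumerated in place of random resamples. The fits and the correlation test were tested on simulated data. Creb1 and Rgs2 stand in 2 lists each. Genes of other lists were named by calls up to 8 per list and the smallest p in each model; the 10 most alike genes by r, of which 1 is not reported here. Members and lists were chosen with earlier results of these data known. Within-model correlations, library measures and the correlation background were added after seeing the data. Alternatives covered scaling, filters, tests, depth and leaving out libraries.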

Additional observations from a re-analysis of the deposited data

Results flagged for a closer look

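Each of the 10 genes was examined for a library far from the others in the 2 groups of 4 libraries, 20 sets in all, of which chance marks about 1 in 20. Atf3 in db/db was the one set marked: library B stood at 0.430 CPM, a single read, while the other 3 libraries had no read.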

How the results depend on the processing

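No paired analysis was possible because the columns of the table carry animal or tube numbers that no label repeats, so no replicate number ties a library of one group to one of another. Calls changed under 1 alternative, keeping genes of low counts. With every gene of at least 1 count kept, edgeR called 2 members in the db model (Fosb and Jund), 4 in CT ob against CT db (Fosb, Jund, Ier2 and Dusp1) and 1 in the difference between the models (Jund), against 0 in the reported fits, and 0 in the other comparisons. In those fits the prior degrees of freedom were infinite, that is, each gene's spread was replaced by the trend, against 4.32 to 5.71 in the reported ones, and 270 of 28505 genes (0.947%) were called in the db model against 1 of 11317. They called 4.97% of all genes (1727 of 34753) in CT ob against CT db and 0.947% (329 of 34753) in the difference. Shares were 1.12% (359 of 32006) in the ob model and 1.54% (535 of 34753) in ob/ob against db/db. No other alternative called a member, at least 10 counts in every library included. Of the named list genes, Tob1 in db/db passed in edgeR under 1 alternative (adjusted p = 0.00623). So did Star (edgeR adjusted p = 0.0252) and Gadd45g (edgeR adjusted p = 0.0422) in ob/ob. Near 0, signs turned. In db/db, Junb was -0.0091 with RLE scaling, -0.028 with at least 1 count, -0.0025 with at least 10 counts in every library, -0.0054 by DESeq2 and -0.038 after downsampling. In ob/ob, Fosb was 0.21 with library size alone, 0.12 with at least 1 count, 0.0017 with at least 10 counts in every library, 0.063 after downsampling and 0.0060 without 18S and mitochondrial genes; Junb was 0.12 with library size alone and 0.065 with at least 1 count; Nr4a1 was 0.25 after downsampling.

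Leaving out 1 library called no member in any comparison. In the db model it moved Jun between 0.28 and 1.12, Ier2 between 0.29 and 1.2, Junb between -0.41 and 0.49, Egr1 between -0.21 and 1.47, Dusp1 between -0.056 and 1.29 and Nr4a1 between -0.43 and 0.68. In the ob model it moved Fos between -0.22 and 1.58, Fosb between -0.74 and 1.72, Jun between -0.38 and 0.77, Junb between -1.76 and 1.39, Jund between -1.72 and 0.54, Egr1 between -1.07 and 0.84, Ier2 between -0.84 and 0.72, Dusp1 between -0.42 and 0.92 and Nr4a1 between -1.37 and 0.43. In CT ob against CT db, Fosb moved between -0.030 and 2.27 and Jund between -0.43 and 1.85. These are log2 fold changes. In the joint movement 32 to 44 of 45 pairs passed the threshold with 1 library left out, and 37 to 40 with a prior count of 0.5 or RLE scaling. With 3 or 4 libraries a group and this spread, the intervals, not the read depth, limit what can be seen; Atf3 alone was limited by depth.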
